A study of Mus musculus with 8 samples.

Results

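Regions of methylated DNA were examined in 3 large zinc finger gene clusters of the mouse genome, on mm9 at chr13:65000000-68000000, chr4:145000000-147500000 and chr2:174500000-178000000. Peaks of all 8 libraries were merged wherever they shared at least 1 bp, and the members were the 713 merged regions, of 475861 in all, that overlapped one of these windows. The chromosome 13 window held 231 members, the chromosome 4 window 297 and the chromosome 2 window 185. The rest of these 3 chromosomes, with 87410 merged regions, served for comparison. The windows were given by position.

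The study followed DNA methylation in mouse intestinal epithelium with MBD sequencing: a protein with a methyl-CpG-binding domain captures methylated fragments, which are then sequenced. There were 4 groups with 2 biological replicates each, all from mice of a mixed C57BL/6 CD1 strain. The E12.5 and E14.5 groups, named by embryonic day, were epithelial cells of the small intestine, sorted as EpCAM+ cells without CD31, CD45 or DAPI staining; the sex of the embryos is not given in the sources used here. The adult groups came from males at postnatal day 60 that carried the Lgr5EGFP-Cre-ERT allele. Intestinal stem cells (ISC) were sorted for high EGFP from the Lgr5 locus, and adult enterocytes (AE) were sorted by the same EpCAM, CD31, CD45 and DAPI gate as the embryonic cells. Carriage of the allele is therefore shared by both adult groups, and age, sex and allele cannot be told apart between adult and embryonic cells. Each replicate began with 200000 cells and 1 µg of DNA. The sorted cell types could not be checked against marker genes, because the gene positions at hand are of another genome build.

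KRAB zinc finger proteins are DNA-binding repressors that pair an array of zinc fingers, which reads the DNA sequence, with a KRAB domain that recruits the corepressor TRIM28 and the histone methyltransferase SETDB1. Many of them bind transposable elements. Their genes arose by repeated tandem duplication and lie in clusters of closely similar copies, which in many tissues carry repressive chromatin over the gene bodies. In the mouse, Rsl1 of the chromosome 13 cluster is known as a repressor of male-specific liver genes.

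The files assign no genes to peaks, and no mm9 annotation was used here. In the gene order of RefSeq on GRCm38.p6, taken for names and neighbours only, the longest run of neighbouring coding genes with zinc finger names (Zfp, Rsl or Rex2 symbols, with unnamed predicted genes passed over) on chromosome 13 held 25 genes, Zfp712 to Zfp273, among them Rsl1 and Rslcan18. On chromosome 4 it held 17 genes, Zfp990 to Zfp933, among them Rex2 and Zfp600, and ended next to Miip. On chromosome 2 it held 9 genes, Zfp968 to Zfp931, next to Phactr3. That these runs are the genes of the mm9 windows rests on the name given to the windows and was not checked on mm9.

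MBD capture depends on the number of methylated CpGs in a fragment, so the CpG content of the promoters is shown. RefSeq promoters of GRCm38.p6, each of 300 bases around the gene start, were found for 44 of the 51 genes. They held a median of 5.5 CpGs (the letters CG, the same on both strands), against 7 over 27025 mouse promoters. At least 10 CpGs were present in 8 of the 44, or 18.2%, against 43.9% of all promoters. Of these 8, 7 belonged to the chromosome 13 run, 1 to the chromosome 4 run and 0 to the chromosome 2 run. The promoter with the most CpGs of each run follows, with every CpG in capitals. It shows the upper end of each run, since the median promoter held 8.5 CpGs on chromosome 13, 5 on chromosome 4 and 5 on chromosome 2. They lie at chr13:67061121-67061420 on the minus strand with 16 CpGs, at chr4:147442864-147443163 on the plus strand with 16 and at chr2:175372186-175372485 on the plus strand with 5, all in GRCm38.p6. No peak was assigned to any of them.
Zfp712: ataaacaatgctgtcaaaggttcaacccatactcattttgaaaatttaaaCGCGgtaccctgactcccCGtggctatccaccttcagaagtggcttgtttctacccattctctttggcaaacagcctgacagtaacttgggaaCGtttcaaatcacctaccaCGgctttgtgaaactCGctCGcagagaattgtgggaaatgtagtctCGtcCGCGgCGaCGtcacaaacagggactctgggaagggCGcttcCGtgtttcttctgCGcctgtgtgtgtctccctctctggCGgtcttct
Zfp982: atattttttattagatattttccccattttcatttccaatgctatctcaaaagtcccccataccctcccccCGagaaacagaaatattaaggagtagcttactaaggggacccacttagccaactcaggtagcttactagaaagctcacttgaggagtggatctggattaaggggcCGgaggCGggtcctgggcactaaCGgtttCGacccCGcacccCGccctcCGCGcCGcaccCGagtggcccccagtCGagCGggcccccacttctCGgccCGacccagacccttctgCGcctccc
Zfp968: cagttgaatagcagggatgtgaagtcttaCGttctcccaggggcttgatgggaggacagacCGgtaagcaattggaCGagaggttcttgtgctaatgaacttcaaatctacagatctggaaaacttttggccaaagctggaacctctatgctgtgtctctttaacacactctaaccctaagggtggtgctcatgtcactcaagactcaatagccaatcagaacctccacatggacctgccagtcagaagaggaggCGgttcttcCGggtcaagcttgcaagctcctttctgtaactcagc

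Depth ranged from 31438314 to 55442400 tags per library and the lists from 84990 to 338262 peaks, with the shortest lists from the most deeply sequenced libraries, those of E12.5. Each list was thresholded on its own without a control library, so where a library lacks a peak, its tags may still be present below the cutoff. Densities were therefore read as a ratio within each library, of the clusters over the rest of their chromosomes.

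Methylated regions were sparse in the zinc finger clusters in every library. The clusters held 79.2 merged regions per Mb, against 198.8 per Mb in the rest of the chromosomes. In E12.5 epithelium there were 18.9 and 18.8 peaks per Mb in the clusters against 41.6 and 35.5 in the rest, and in E14.5 epithelium 50.0 and 59.6 against 132.2 and 141.4. In ISC there were 33.8 and 46.1 peaks per Mb in the clusters against 85.6 and 118.8 in the rest, and in AE 29.2 and 36.9 against 68.8 and 97.8. The density in the clusters was below that of the rest in 8 of 8 libraries, with a mean log2 ratio of -1.26 ± 0.17 (SD, n = 8), or 0.418 of the density elsewhere. An exact two-sided sign-flip permutation test over the 8 libraries gave p = 0.0078125, the smallest it can give, and 0.0117 after Benjamini-Hochberg adjustment over 3 measures. The libraries share one genome, so the test shows that the direction repeated over libraries. The share of bases under peaks was also lower in the clusters, with a log2 ratio of -1.28 ± 0.22 (SD, n = 8; exact p = 0.0078125, adjusted 0.0117). Both calls ended when stretches of 50 kb or more without any peak were left out of both sides. This alternative was chosen after the data were seen. Over the 3 windows together, the log2 ratio of density was then -0.08 (exact sign-flip p = 0.211) and that of covered bases -0.10 (exact sign-flip p = 0.211). These stretches were defined by a lack of peaks in the same lists, and made up 58.9% of the windows against 7.18% of the rest. Leaving them out raises the ratio by construction, so it cannot test the deficit. The values describe the density outside such stretches. The windows differed: on chromosome 13 the density ratio was still below 0 in all 8 libraries, between -1.11 and -0.41. It lay between -0.22 and 0.08 on chromosome 2 and between -0.01 and 0.99 on chromosome 4.

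The 3 clusters differed in where they stood against the rest of their chromosomes. On chromosome 2 the log2 density ratio lay between -2.20 and -1.89 in the 8 libraries, and on chromosome 13 between -2.07 and -1.37. On chromosome 4 it lay between -0.70 and 0.30. Set beside tiles of their own size along the chromosome, the chromosome 2 window ranked between 2nd and 8th lowest and the chromosome 13 window between 3rd and 5th lowest, over the 8 libraries. The chromosome 4 window ranked between 22nd and 38th when set beside 59 other tiles.

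The chromosome 4 cluster was the only 1 of the 3 whose density ratio lay on both sides of 0. Its log2 density ratio over the rest of chromosome 4 was 0.10 and 0.30 in E12.5, -0.68 and -0.42 in E14.5, -0.56 and -0.68 in ISC, and -0.37 and -0.70 in AE. Peaks were thus denser in this cluster than in the rest of the chromosome in both E12.5 libraries and sparser in the 6 later ones, over the whole length of the window. With stretches of 50 kb or more without any peak left out of both sides, the ratio was 0.79 and 0.99 in E12.5, 0.01 and 0.27 in E14.5, 0.13 and 0.01 in ISC, and 0.32 and -0.01 in AE. The sign then no longer separated the stages. Both E12.5 libraries were still above the 6 later ones, but this step moves every library by the same amount and cannot change their order. The 6 later libraries averaged -0.57 ± 0.14 and the 2 E12.5 libraries 0.20 ± 0.14 (SD), a difference of -0.77. On chromosome 13 the order was the opposite, with -1.51 ± 0.08 in the 6 later libraries and -1.97 ± 0.14 in E12.5, a difference of 0.46. On chromosome 2 the means were -2.04 ± 0.10 in the later libraries and -1.99 ± 0.15 in E12.5, a difference of -0.05. This value depended on the window's edges, whose first and last 250 kb held 84 and 57 of its 185 members. With the window trimmed by 250 kb, the difference was 0.95 (exact permutation p = 0.0714), with few E12.5 peaks left. Over the whole windows, the later and E12.5 ranges did not overlap on chromosomes 4 and 13 and overlapped on chromosome 2. The grouping of later against E12.5 was chosen after the data were seen. Exact two-sided permutation tests of 6 against 2 libraries cannot go below p = 0.0714, which chromosomes 4 and 13 reached (adjusted 0.107 over 3 windows), and chromosome 2 gave p = 0.571.

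Because the E12.5 lists were the shortest, each list was also held to its 84990 highest-scoring peaks. The chromosome 4 ratio was then 0.20 and 0.30 in E12.5, -0.04 and -0.00 in E14.5, -0.19 and -0.12 in ISC, and -0.18 and -0.15 in AE. The later and E12.5 libraries still did not overlap there, and the difference of later minus E12.5 was -0.36. On chromosome 13 the ratio was -1.96 and -1.87 in E12.5 and between -1.67 and -1.19 in the later libraries. The difference of later minus E12.5 was 0.49 there and -0.02 on chromosome 2. In these lists of equal length, the median percentile of the chromosome 4 cluster's peaks by the authors' peak score was 72.9 and 72.1 in E12.5, 56.6 and 70.9 in E14.5, 72.5 and 60.6 in ISC, and 68.4 and 58.5 in AE. The ISC and E12.5 ranges overlapped, and all 8 values were above those of the rest of the chromosome, which lay between 49.3 and 50.7.

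**Figure D1:**
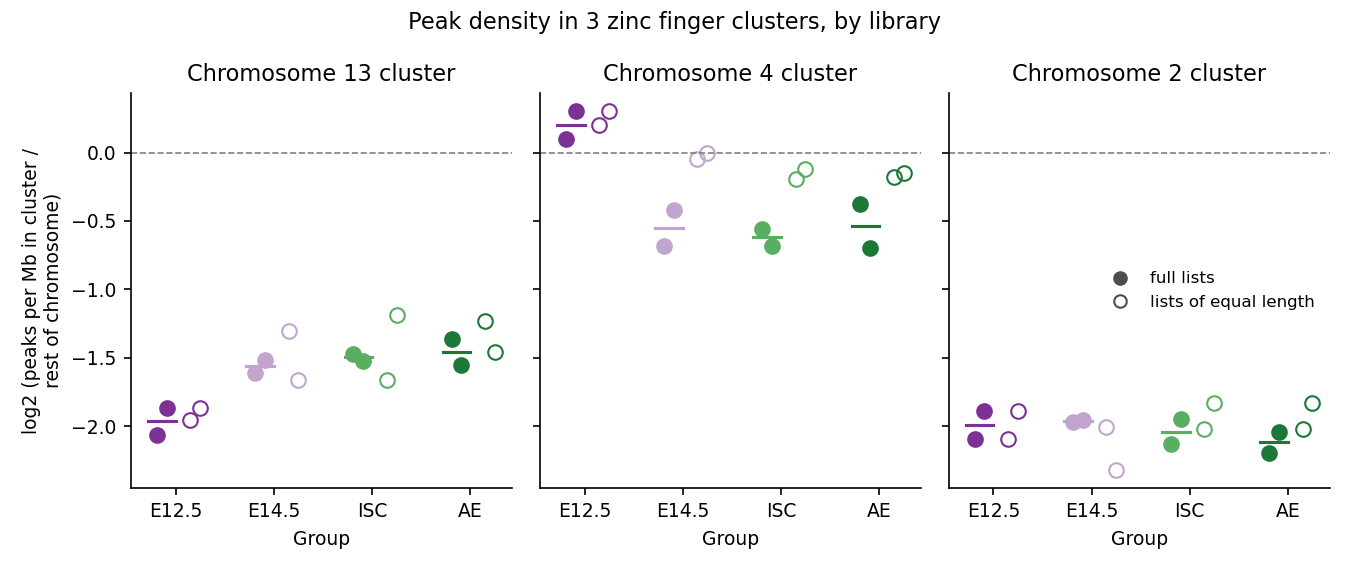
Log2 ratio of peaks per Mb in each cluster over the rest of its chromosome, by group (horizontal axis). Filled points are libraries with full lists, lines their group means and open points the same libraries held to lists of equal length; in the chromosome 4 panel the E12.5 points lie above 0 and all others below it.

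Averaged over the 3 clusters, adult and embryonic libraries were not separated. The log2 density ratio was -1.34 ± 0.07 in adult and -1.18 ± 0.20 in embryonic libraries (SD, n = 4 each), a difference of -0.16 (exact permutation test, two-sided, p = 0.229, adjusted 0.471 over 3 measures; the smallest possible is 0.0286). The difference in covered bases was -0.18 (exact p = 0.314, adjusted 0.471). Without the chromosome 4 window both differences changed sign, to 0.11 for density (exact p = 0.171) and 0.13 for covered bases (exact p = 0.0286).

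Members were clumped along each window and separated by long stretches with no peak in any of the 8 libraries. Stretches of at least 50 kb without a peak made up 51.3% of the chromosome 13 window against 5.55% of the rest of that chromosome. On chromosome 4 they made up 44.0% of the window against 9.66% of the rest, and on chromosome 2 they made up 76.1% against 6.12%. Taken over the 3 windows, 29 such stretches covered 58.9% of the length, against 7.18% of the rest. The files hold peaks and not coverage, and how reads that align to several places were handled is not given in the sources used here. A stretch without methylated DNA and a stretch where tags of similar gene copies could not be placed cannot be told apart. No mm9 sequence was used here, so what else could leave a stretch without peaks was not tested.

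**Figure D2:**
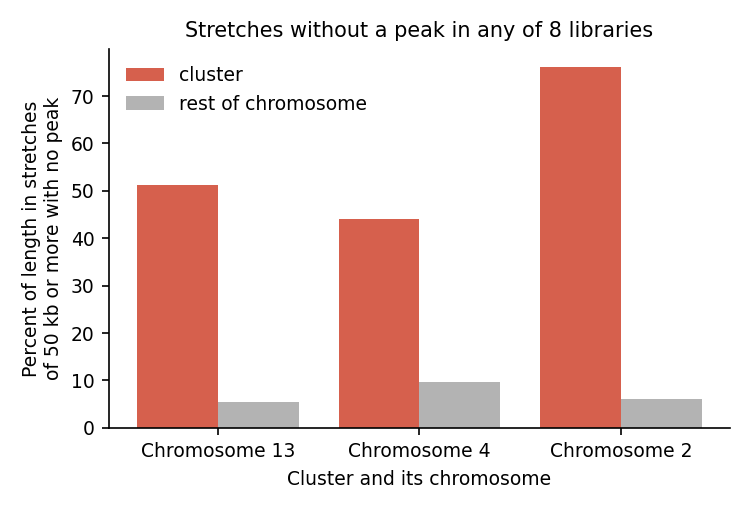
Percent of length (vertical axis) in stretches of 50 kb or more with no peak in any of the 8 libraries, for each cluster (red) and the rest of its chromosome (grey). The shares are 51.3%, 44.0% and 76.1% in the clusters and below 10% in the rest.

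The longest stretch without a peak in the windows was chr2:175001225-176830135, of 1828.9 kb, the longest on chromosome 2 and the 4th longest on the autosomes. The longest on chromosome 13 was chr13:65846918-66163101 (316.2 kb) and that on chromosome 4 was chr4:145771423-146025928 (254.5 kb). Between 175.0 and 176.75 Mb of chromosome 2 there was 1 member, seen in 1 library. At the near edge of the same window, between 174.5 and 174.75 Mb, there were 84 members, and the peak density there was 64 and 84 per Mb in E12.5, 240 and 248 in E14.5, 152 and 208 in ISC, and 132 and 180 in AE. On chromosome 13, 22 members lay between 65.5 and 67.0 Mb and 168 between 67.0 and 68.0 Mb. The borders of these subdivisions, and of those on chromosome 4 that follow, were set after the data were seen.

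On chromosome 4 the E12.5 peaks were concentrated in the inner clumps. Between 146.5 and 147.0 Mb, with 81 members, the density was 94 and 98 peaks per Mb in E12.5, 120 and 146 in E14.5, 94 and 102 in ISC, and 76 and 78 in AE. Between 145.5 and 145.75 Mb, with 34 members, it was 96 and 96 in E12.5, 96 and 112 in E14.5, 88 and 88 in ISC, and 76 and 60 in AE. In the rest of chromosome 4 the same libraries had 38.9 and 34.1 peaks per Mb in E12.5, 125.2 and 136.7 in E14.5, 81.5 and 113.4 in ISC, and 64.8 and 92.8 in AE. In these 2 clumps the E12.5 libraries lay within or above the adult range, while in the rest of the chromosome they had the fewest peaks. At the outer edge, between 147.0 and 147.5 Mb with 118 members, there were 38 and 36 peaks per Mb in E12.5, 140 and 186 in E14.5, 76 and 120 in ISC, and 74 and 104 in AE.

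**Figure D3:**
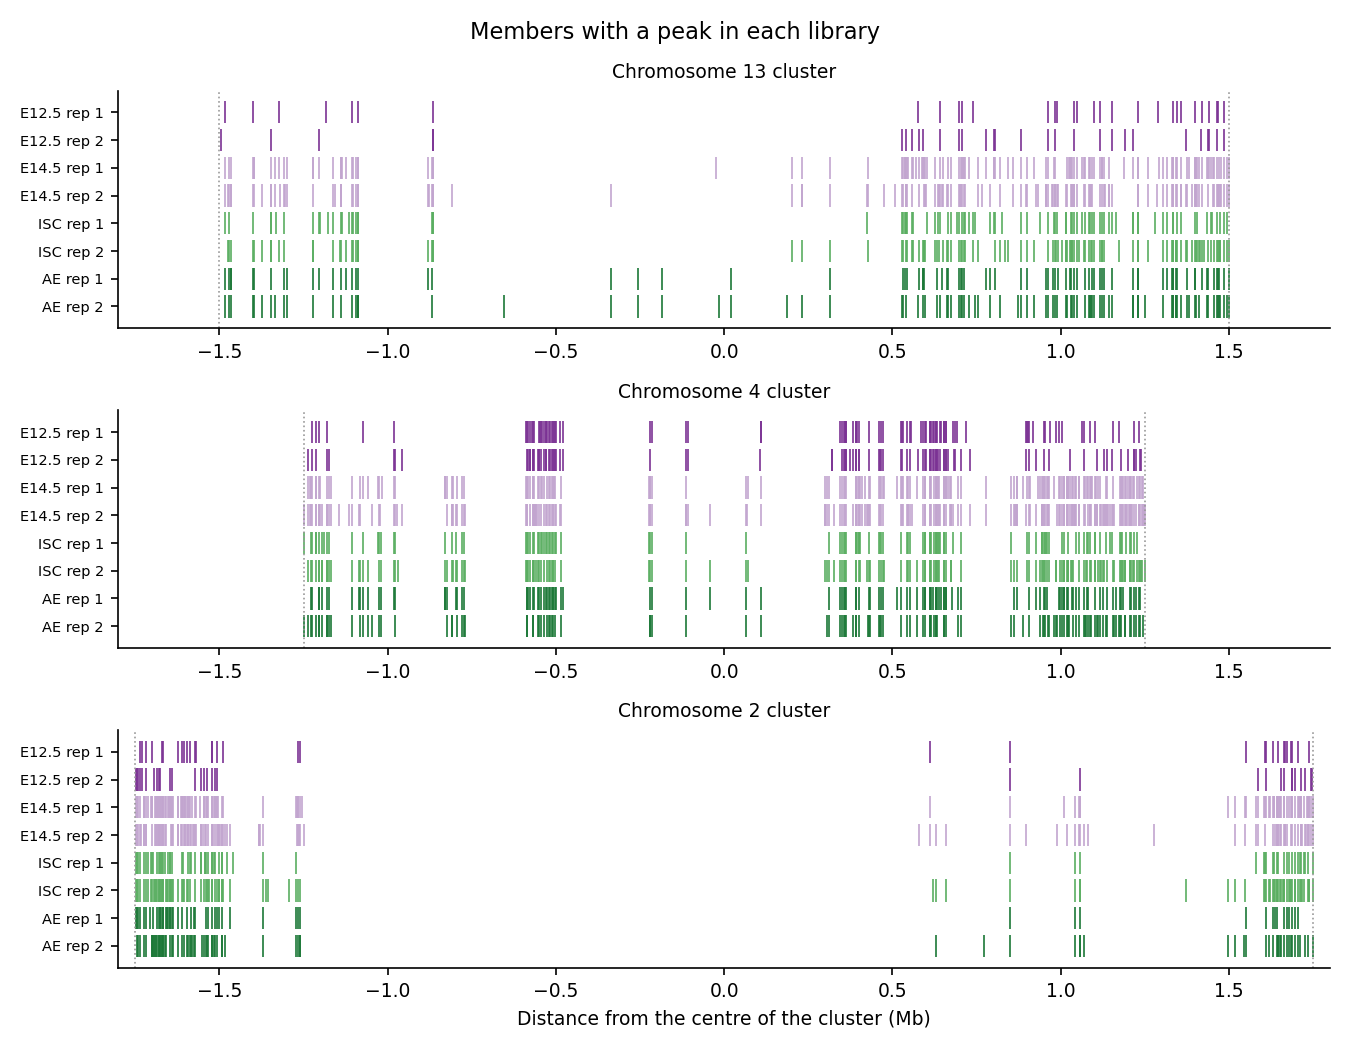
Members with a peak in each library (rows) along the 3 clusters, by distance from the centre of the cluster in Mb; dotted lines mark the window ends and colours the groups. Each tick is a member at its midpoint, and the blank stretches are shared by all 8 libraries.

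Peaks in the clusters were slightly shorter and had a slightly higher fold enrichment than elsewhere in the same library. The median peak length was 0.965 of that in the rest, a log2 ratio of -0.05 ± 0.05 (SD, n = 8), below 0 in 6 of 8 libraries (exact sign-flip permutation test, p = 0.0313). By window it was -0.17 ± 0.05 on chromosome 13, 0.02 ± 0.06 on chromosome 4 and -0.02 ± 0.07 on chromosome 2. Without the chromosome 13 window the mean was 0.01 (exact p = 0.805), with 5 Mb flanks as the reference it was -0.18 (exact p = 0.0078125), and without any of 6 libraries in turn (AE replicate 1, either ISC, either E14.5 or E12.5 replicate 2) it was no longer called (exact p = 0.0625). Adult and embryonic libraries had log2 length ratios of -0.05 ± 0.04 and -0.06 ± 0.06 (SD, n = 4 each; exact permutation p = 0.829). Lengths were compared only within libraries, since the fragment size that the caller modelled ran from 57 to 164 bp. The authors' fold enrichment over local background was higher in the clusters in all 8 libraries, with a log2 ratio of medians of 0.12 ± 0.01 (SD, n = 8) over the 3 windows together. By window it was 0.11 ± 0.03 on chromosome 13, 0.18 ± 0.04 on chromosome 4 and 0.03 ± 0.04 on chromosome 2, where it was 0 in both ISC libraries and -0.01 in E14.5 replicate 1. Merged members had a median length of 541 bp, against 560 bp in the rest, and ran from 106 to 4539 bp.

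Presence was then compared by group. A member counts as called in a group when both libraries have a peak in it. Of the 713 members, 85 were called in E12.5, 308 in E14.5, 211 in ISC and 206 in AE. For E12.5 this is 11.9% of members, with 7.93% over all 475861 regions and 7.86% in the rest of the 3 chromosomes. The chromosome 4 cluster had 63 of its 297 members called in E12.5, or 21.2%, while the chromosome 13 cluster had 5.19% and the chromosome 2 cluster 5.41%. In E14.5, ISC and AE the shares of members were 43.2%, 29.6% and 28.9%, near the 43.8%, 31.7% and 27.7% of the rest. Peaks in all 8 libraries were found in 57 members, 7.99%, with 5.16% over all regions. Of these, 42 lay on chromosome 4, 14.1% of that cluster, with 8 on chromosome 13 (3.46%) and 7 on chromosome 2 (3.78%). Members seen in a single library numbered 210, or 29.5%, with 28.1% over all regions.

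**Figure D4:**
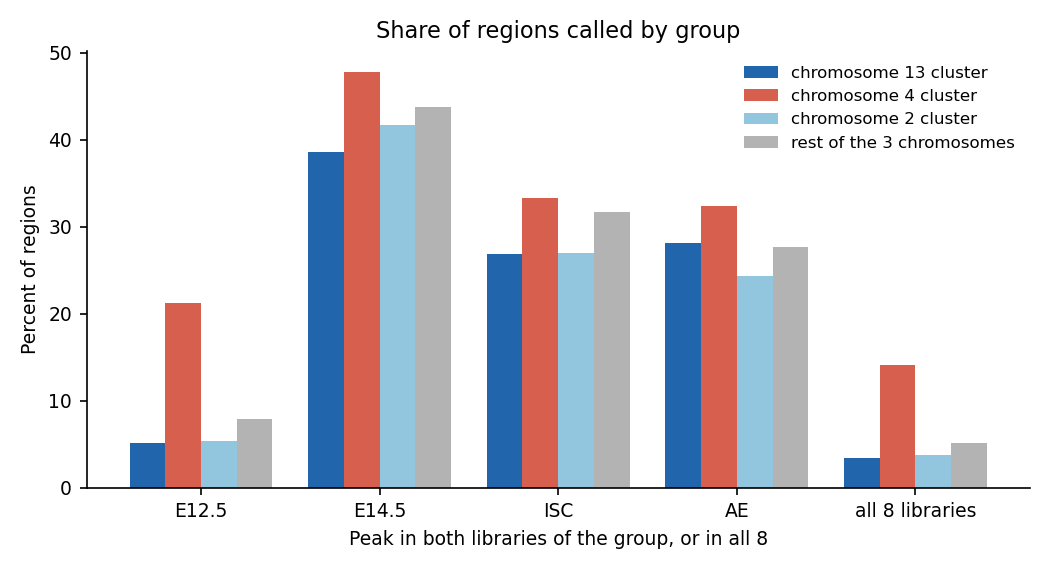
Percent of merged regions (vertical axis) with a peak in both libraries of a group, or in all 8 libraries, for the 3 clusters and the rest of their chromosomes. In E12.5 and in all 8 libraries the chromosome 4 cluster stands at 21.2% and 14.1%, with 7.86% and 5.13% in the rest.

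Between E14.5 and E12.5, 166 members were called in both E14.5 libraries and not in either E12.5 library, 23.3% with 23.9% over all regions. This share is at the background. The opposite pattern, both E12.5 libraries and no E14.5 library, was found in 7 members, 0.982%, with 0.276% over all regions and 0.238% in the rest of the 3 chromosomes. Of these 7, 6 lay on chromosome 4 and 1 on chromosome 2. On chromosome 4 this was 2.02% of members, with 0.246% in the rest of that chromosome. Where lists differ this much in length, these counts move with the list: with lists of equal length, 29 of 378 members had the E14.5 pattern, 7.67% with 5.39% over all 225966 regions of those lists, and 25 had the E12.5 pattern, 6.61% with 3.58%. Of these 25, 19 lay on chromosome 4, 10.6% of its 179 members, with 3.44% in the rest of the 3 chromosomes.

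Between ISC and E14.5, 7 members had peaks in both ISC and no E14.5 library (0.982%, with 1.91% over all regions), and 40 had the reverse (5.61%, with 6.69%). Between AE and ISC, 13 members had peaks in both AE and no ISC library (1.82%, with 1.28%), and 32 had the reverse (4.49%, with 3.85%). Peaks in all 4 adult and no embryonic library were found in 2 members (0.281%, with 0.402%), and the reverse in 1 member (0.140%, with 0.139%). Leaving out 1 library, so that fewer peaks decide a call, raised many of these counts by more than 1.5 times. The number of members was then between 632 and 738. No share over all regions is set beside these counts, so they are not read as a result about the clusters. Without E14.5 replicates 1 and 2 in turn, 307 and 255 members were in E14.5 and not E12.5, and 12 and 14 in E12.5 and not E14.5; the last count was 28 and 27 without E12.5 replicates 1 and 2. In ISC and not E14.5 there were 44 and 28 without ISC replicates 1 and 2, and 28 and 17 without E14.5 replicates 1 and 2. The reverse was 142 and 92 without E14.5 replicates 1 and 2 and 118 without ISC replicate 2. In AE and not ISC there were 52 and 29 without AE replicates 1 and 2, and 23 and 57 without ISC replicates 1 and 2. The reverse was 49 and 53 without AE replicates 1 and 2, and 102 and 75 without ISC replicates 1 and 2. Adult and not embryo was 4 without ISC replicate 2, and embryo and not adult was between 2 and 4 without each of the 4 embryonic libraries in turn.

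Among the members named by their rank in the lists, chr4:145770441-145771422, of 982 bp, was the highest-ranked of those called in E12.5 and not in E14.5. It had 73 and 42 tags in E12.5, no peak in E14.5 or ISC, and 38 tags in AE replicate 1 alone of the adult libraries. It stands at the edge of the longest peak-free stretch of that window. The region at chr2:174519903-174520531 had 49 and 42 tags in E12.5 and no peak in any other library. In the opposite direction, chr2:174714821-174716172 had no peak in E12.5, 115 and 76 tags in E14.5, 59 and 83 in ISC, and 107 and 97 in AE. The region at chr4:146561298-146562305 had no peak in E12.5, 61 and 58 tags in E14.5, 20 and 82 in ISC, and 68 and 91 in AE. Both were thus called in all 6 later libraries and in neither E12.5 library.

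The enterocyte regions included 3 in the sparse part of the chromosome 13 cluster that had peaks in AE alone. The highest-ranked, chr13:66518615-66519805, had 89 and 75 tags in the AE libraries and no peak in any other library. The nearest ISC peak was 182314 bp away, and the nearest peaks of any library lay 34168 bp before it and 167706 bp after it. At chr13:66244743-66245646 there were 61 and 31 tags and at chr13:66315077-66315732 there were 35 and 50 tags, again in AE alone. Both were picked after their values were seen. Their score percentiles in AE replicates 1 and 2 were 77.1 and 20.4 at the former and 23.2 and 84.5 at the latter. In this window, 43 members had a peak in both or neither library of every group. Of these, 3 had peaks in AE alone, or 6.98%, with 1.23% in the rest of chromosome 13. The second ranked of the members called in AE and not in ISC, chr4:146944980-146945486, had no peak in E12.5, 21 and 29 tags in E14.5, no peak in ISC, and 34 and 32 tags in AE. Of the reverse kind, chr13:65634862-65635401 had 31 tags in E12.5 replicate 2, 44 and 37 in E14.5, 45 and 43 in ISC, and no peak in AE. The region at chr2:177857855-177859092 had 77 tags in E12.5 replicate 1, 70 and 62 in E14.5, 63 and 39 in ISC, and no peak in AE. Each was also called in both E14.5 libraries.

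Of the members called in ISC and not in E14.5, chr13:67713484-67714591 had 28 tags in E12.5 replicate 2, no peak in E14.5, 26 and 25 tags in ISC, and 57 and 37 in AE. The region at chr13:67061029-67061549 had 30 and 21 tags in ISC alone. In E14.5 and not in ISC, chr4:147276879-147277485 had 51 tags in E12.5 replicate 2, 43 and 33 in E14.5, and no peak in ISC or AE. At chr4:146358645-146359479 there were 46 tags in E12.5 replicate 1, 39 and 35 in E14.5, no peak in ISC, and 48 and 33 tags in AE, so that only ISC and E12.5 replicate 2 lacked a peak.

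The members that separated all adult from all embryonic libraries were weak. The adult ones were chr4:145229944-145230921, with 17 and 27 tags in ISC and 46 and 66 in AE, and chr2:174757187-174758026, with 31 and 23 tags in ISC and 53 and 40 in AE. The embryonic one, chr4:146777421-146778659, had 140 and 64 tags in E12.5 and 44 and 24 in E14.5. The nearest adult peak was 806 bp away. None of the 3 was called in the stricter 50% of each list or in lists of equal length.

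The strongest members called in all 8 libraries lay on chromosome 4. At chr4:146722632-146724549, with a score above the 99.9th percentile of every list, there were 226 and 223 tags in E12.5, 223 and 235 in E14.5, 229 and 195 in ISC, and 263 and 246 in AE. At chr4:146774304-146776615 there were 243 and 305 tags in E12.5, 320 and 289 in E14.5, 266 and 322 in ISC, and 337 and 357 in AE. Scaled to depth, as tags per 1000000 tags of the library, the first had means of 4.06 in E12.5, 6.59 in E14.5, 6.63 in ISC and 6.18 in AE, and the second 4.95, 8.77, 9.22 and 8.45 in the same order, so E12.5 was the lowest group at both. At chr4:145713576-145715780 there were 276 and 289 in E12.5, 243 and 236 in E14.5, 237 and 248 in ISC, and 323 and 277 in AE. The longest member of any cluster, chr4:146790826-146795364 of 4539 bp, had 405 and 432 tags in E12.5, 313 and 239 in E14.5, 226 and 226 in ISC, and 447 and 230 in AE. Scaled to depth, the means in E12.5, E14.5, ISC and AE were 5.10, 6.90, 7.60 and 7.26 at chr4:145713576-145715780. At the longest member they were 7.56, 7.95, 7.08 and 8.09 in the same order, so E12.5 lay within the range of the other groups there. The strongest on the other chromosomes had fewer tags. The highest-ranked on chromosome 13, chr13:67984149-67985747, had 51 and 69 tags in E12.5, 56 and 94 in E14.5, 84 and 94 in ISC, and 106 and 121 in AE. Its counterpart on chromosome 2, chr2:177938477-177939460, had 74 and 88 in E12.5, 92 and 70 in E14.5, 54 and 68 in ISC, and 73 and 73 in AE. Scaled to depth, the means in E12.5, E14.5, ISC and AE were 1.08, 2.16, 2.79 and 2.77 for the chromosome 13 member. For its chromosome 2 counterpart they were 1.46, 2.33, 1.91 and 1.77. A further chromosome 2 member, chr2:177098919-177100375, stood between peak-free stretches of 76213 bp and 47688 bp. Its means scaled to depth were 2.83 in E12.5, 2.03 in E14.5, 2.24 in ISC and 1.81 in AE, so E12.5 was the highest group. The log2 ratio of E14.5 over E12.5 was -0.48. The libraries overlapped, with 2.92 in E14.5 replicate 1 and 2.62 in E12.5 replicate 2. Fold enrichments were 9.13 and 7.27 in E12.5, 15.06 and 15.99 in E14.5, 15.27 and 10.01 in ISC, and 7.10 and 6.07 in AE. Each is relative to the local background of its own library, so they do not rank the groups.

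Normalised tag counts, in tags per 1000000 tags of the library, were compared at the regions called in all 8 libraries, where every library has a value. These values are summed over the peaks a library has in the region, so they also follow the width the caller gave the peaks, and they are descriptions with no test. In the rest of chromosome 4, 1504 such regions had a median log2 ratio of E14.5 over E12.5 of 0.85. The 42 members on chromosome 4 had a median of 0.49, and 8 of them, 19.0%, were below 0, with 4.39% below 0 in the rest. On chromosome 13 the median was 0.89 over 8 members, against 0.78 over 1226 regions in the rest, and on chromosome 2 it was 0.67 over 7 members, against 0.80 over 1750 regions. On chromosome 4 the median normalised tag count of the members was 1.539 and 1.497 in E12.5, against 1.104 and 0.956 in the rest. In E14.5 it was 2.43 and 1.83, against 2.14 and 1.78. Members were thus 1.39 and 1.57 times the rest in E12.5 and 1.14 and 1.03 times in E14.5. They were also higher in the adult libraries, at 1.32 and 1.08 times in ISC and 1.30 and 1.15 times in AE. Higher values were therefore not particular to E12.5.

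The members at the ends of this range, picked after their values were seen, show the size of the differences. At chr4:146709990-146712872 E14.5 had 107 and 85 tags, against 284 and 378 in E12.5, a log2 ratio of -1.11 in normalised tag counts. At chr4:145739965-145741858 E14.5 had 75 and 63 tags, against 160 and 204 in E12.5 (-0.73). At the other end, chr4:146597661-146600403 had 142 and 172 tags in E14.5, against 57 and 46 in E12.5 (2.28). Members with more and with fewer tags in E14.5 than in E12.5 therefore lay within the same cluster.

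**Figure D5:**
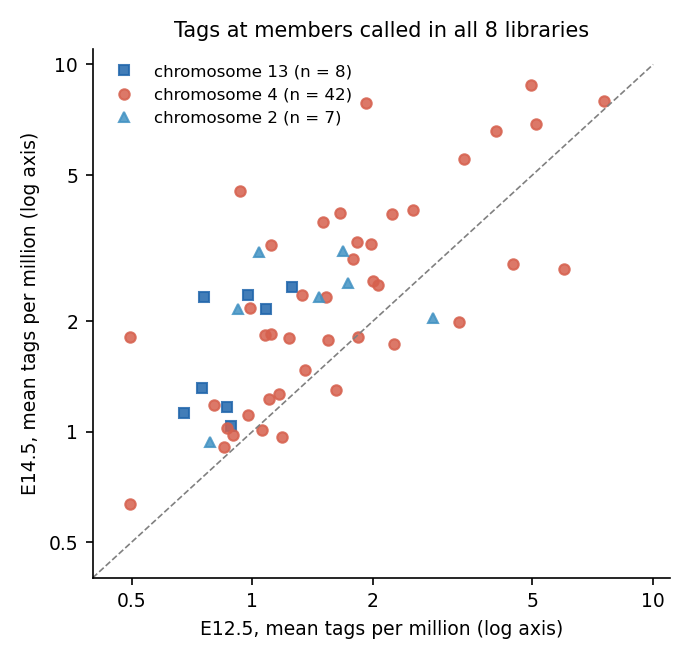
Mean normalised tag count (tags per 1000000) in E14.5 (vertical, log axis) and E12.5 (horizontal, log axis) at the 57 members called in all 8 libraries, with the line of equality. Of the 42 chromosome 4 members, 8 lie below the line; 0 of the 8 on chromosome 13 and 1 of the 7 on chromosome 2 do.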

How the data were processed

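DNA methylation was measured by MBD sequencing in 8 libraries of 4 groups. The submitters' processing notes name the build mm9 and the tools Bowtie 1.1.2, SAMtools 1.2 and bcl2fastq 1.8.4. Per the file headers, MACS 1.4.2 called peaks in each library without a control, at a p cutoff of 1e-05, with tags of 180 bp, a 200 bp band width, 1.87e+09 as genome size and 10000 bp of regional background. Tag counts per peak are whole numbers as the authors deposited them. The score, the negative log10 of the p-value times 10, and the fold enrichment, a ratio to local background, are the authors' values per the file headers and were used only to rank or describe peaks within a list. Other calls of the peaks, and any coverage, were not analysed here.

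Merged regions, densities, covered bases, median lengths and presence were computed with Python 3.11.15, numpy 2.4.6, pandas 2.3.3 and scipy 1.17.1, after the steps were tested on simulated data. Positions are 1-based. A library counted as present in a region if it had at least 1 peak there. Ratios of windows over the rest were tested by exact sign flips over libraries and groups by exact permutation, with Benjamini-Hochberg adjustment. Presence was counted with no test, because no tags are given where no peak was called. The replicates are biological duplicates per the series' design, and nothing states that equal numbers share an animal. Regions were named by the lowest percentile of their peak score over the libraries that have the peak: 2 per comparison and direction, and 3 per window called in all 8 libraries, with the longest of these and the longest peak-free stretch. The members, windows and lists were chosen with earlier results of these data known.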

Additional observations from a re-analysis of the deposited data

Results flagged for a closer look

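In the chromosome 4 cluster the log2 density ratio over the rest of the chromosome had opposite signs at consecutive stages. Both E14.5 libraries were below 0, with a mean of -0.55, and both E12.5 libraries above 0, with a mean of 0.20, a difference of -0.75. With peak-free stretches of 50 kb or more left out of both sides the signs were no longer opposite. Both groups were then above 0, at 0.00855 and 0.268 in E14.5 and 0.787 and 0.991 in E12.5. The difference between E14.5 and E12.5 was not tested, since an exact permutation test of 2 libraries against 2 cannot go below p = 0.333. The E12.5 lists were also the shortest, and the part of list length in this difference was not tested beyond the lists of equal length given above.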

How the results depend on the processing

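The lower density and the lower share of covered bases in the clusters were not called with peak-free stretches of 50 kb or more left out. That setting, added after the data were seen, gave -0.0811 and -0.104 (exact sign-flip p = 0.211 each). It raises both ratios by construction, since the stretches were defined by a lack of peaks in these lists. The lower density and the lower share of covered bases were called under all other settings run. Covered bases moved to -1.91 with 5 Mb flanks as the reference and to -1.95 without the chromosome 4 window. Leaving out each library in turn gave -1.31 to -1.24 for density, -1.34 to -1.25 for covered bases and -0.0603 to -0.0397 for peak length. Peak length had the opposite sign without the chromosome 13 window (0.00603), and moved to -0.181 with 5 Mb flanks and to -0.0887 without the chromosome 4 window.

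Adult minus embryo changed sign without the chromosome 4 window, to 0.111 for density and 0.127 for covered bases. Density moved to -0.0432 with lists of equal length, -0.278 with windows trimmed by 250 kb, -0.311 without the chromosome 13 window and -0.106 with flanks. Covered bases moved to -0.0892, -0.295 and -0.319 under the same settings but flanks. For peak length it changed sign with flanks (-0.0177), in the stricter 50% of each list (-0.0283), without AE replicate 2 (-0.00759) and without E14.5 replicate 2 (-0.0158). Leaving out each library gave -0.236 to -0.0741 for density, -0.271 to -0.0619 for covered bases and -0.0158 to 0.0321 for peak length. With the replicate number as a block the 3 differences are -0.161, -0.177 and 0.00908 as without it, and the exact permutation p was 0.278, 0.389 and 0.889, with 0.0556 the smallest possible, and no call changed. Deviations of same-numbered libraries over 447 tiles correlated between -0.0106 and 0.316. These values cannot decide whether equal numbers are pairs, since such deviations can also follow list length. The numbers were not taken as pairs, because nothing states that they share an animal. On chromosome 4, later minus E12.5 ran from -0.870 to -0.666 over libraries left out, and from -1.15 to -0.364 over the other settings. On chromosome 13 it ran from 0.358 to 0.560 over libraries left out, and from 0.494 to 0.712 over the other settings. On chromosome 2 it changed sign with flanks (0.0401), with the window trimmed by 250 kb (0.952) and without E12.5 replicate 2 (0.0552). The trimmed window gave an exact permutation p of 0.0714, the smallest possible. Over libraries left out, the chromosome 2 difference ran from -0.154 to 0.0552.

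The number of members differed by setting. It was 378 with lists of equal length, 423 in the stricter 50% of each list and 612 with merging within 500 bp. It was 713 where peaks had to cover 50% of the region, and between 632 and 738 with 1 library left out. The counts that follow are therefore not shares, and no share over all regions is set beside them. With lists of equal length the counts of members were 29 for E14.5 and not E12.5, 25 for E12.5 and not E14.5, 9 for E14.5 and not ISC, 8 for ISC and not AE, 0 for adult and not embryo, 0 for embryo and not adult, and 33 in all 8 libraries. In the stricter 50% of each list they were 86 for E14.5 and not E12.5, 25 for E14.5 and not ISC, 7 for AE and not ISC, 14 for ISC and not AE, 0 for embryo and not adult, and 37 in all 8. Where peaks had to cover 50% of the region they were 60 for E14.5 and not E12.5, 19 for E12.5 and not E14.5, 18 for ISC and not E14.5, 23 for E14.5 and not ISC, 20 for AE and not ISC, 7 for adult and not embryo, 0 for embryo and not adult, and 9 in all 8. Merging within 500 bp gave 4 for ISC and not E14.5 and 1 for adult and not embryo. Over libraries left out in turn, the ranges were 165 to 307 for E14.5 and not E12.5, 7 to 28 for the reverse, 7 to 44 for ISC and not E14.5, 40 to 142 for the reverse, 13 to 57 for AE and not ISC, 32 to 102 for the reverse, 2 to 4 for adult and not embryo, 1 to 4 for the reverse, and 57 to 75 in all 8. Of the 15 named calls between groups, 9 were also called with lists of equal length and 10 in the stricter 50%. Beyond the fixed cutoff of each list, depth limits what a missing peak can show.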
